A study of Homo sapiens with 12 samples.

Results

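The count table of the HK-2 drug injury experiment was searched for 10 chemokine genes by gene name, and all 10 were found among 58735 genes. They were CXCL1, CXCL2, CXCL3, CXCL5, CXCL6, CXCL8, CXCL16, CCL2, CCL20 and CX3CL1. HK-2 is an immortalised line of human renal proximal tubular epithelium, and poly(A) RNA was sequenced from 12 samples in 4 groups of 3: a control group given water (H2O), Iohexol at 75 mg I/mL, Cisplatin at 5 μM and Vancomycin at 4 mM, each drug for 48 h. Iohexol is an iodinated contrast agent, cisplatin a platinum drug that binds DNA, and vancomycin a glycopeptide antibiotic, and the study set each of them against the control group as a cell model of drug-induced kidney injury. All groups were the same line in the same serum-containing medium. Nothing in the labels says that the 3 samples of a group were separate cultures, so p-values measure the spread between these samples, which may be technical.

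Chemokines are small secreted proteins that bind G protein-coupled receptors on leukocytes and set up the gradients along which those cells move. CXCL1, CXCL2, CXCL3, CXCL5, CXCL6 and CXCL8 carry a Glu-Leu-Arg motif before the first cysteines, act on CXCR2 (CXCL6 and CXCL8 also on CXCR1) and draw neutrophils. CCL2 draws monocytes through CCR2, and CCL20 is the ligand of CCR6 on dendritic cells and T cell subsets. CXCL16 and CX3CL1 (fractalkine) are made as membrane proteins on a mucin stalk, bind CXCR6 and CX3CR1, and become soluble when ADAM10 or ADAM17 cut them. Tubular epithelium makes several of these ligands after injury, and NF-kB is a well known activator of their promoters.

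The 6 neutrophil ligands lie together on chromosome 4, and the count table's positions (GRCh38) place them within 359 kb, from the start of CXCL8 at 73740506 to the end of CXCL2 at 74099293. RefSeq promoter sequences (GRCh38.p14, 250 bases before to 50 after a gene's start) were matched for 7 of the 10 members. All 6 genes of the cluster held GGAATTTCC, an NF-kB type sequence, once in that window, whereas both strands of all 35116 promoters gave it in 162 of them (0.461%). This is a description and not a test, since the sequence was a chosen one and the 6 promoters are not independent. The bases around it are nearly the same in CXCL1, CXCL2 and CXCL3, and in CXCL5 and CXCL6. The windows below are printed because this stretch is what the promoters of the cluster have in common. They run 5′ to 3′ along each gene's strand, with GGAATTTCC in capitals.
CXCL1: tggaactccgGGAATTTCCctggcccgggg
CXCL2: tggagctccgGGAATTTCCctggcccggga
CXCL3: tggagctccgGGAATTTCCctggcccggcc
CXCL5: atgagttcagGGAATTTCCccagcatccca
CXCL6: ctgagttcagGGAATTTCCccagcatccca
CXCL8: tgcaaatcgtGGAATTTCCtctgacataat
The capitals begin at -78, -77 and -78 from the RefSeq start in CXCL1, CXCL2 and CXCL3, at -90 and -89 in CXCL5 and CXCL6, and at -91 in CXCL8. The windows are at chr4:73869305-73869334 (CXCL1, plus strand), chr4:74099253-74099282 (CXCL2, minus), chr4:74038748-74038777 (CXCL3, minus), chr4:73998748-73998777 (CXCL5, minus), chr4:73836579-73836608 (CXCL6, plus) and chr4:73740468-73740497 (CXCL8, plus). In the count table's annotation CXCL2, CXCL3, CXCL5 and CXCL6 begin upstream of the RefSeq start, so their windows lie inside the annotated gene. A match of letters is a description and does not show that a factor binds there.

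The promoters of CXCL8 and CCL20 are given in more length, since CXCL8 was the most abundant member and CCL20 the one with the largest changes against control. In CXCL8 the capitals mark TGANTCA, the AP-1 type sequence (read on both strands, it is its own reverse complement), and GGAATTTCC. In CCL20 they mark a match to the 10-base NF-kB consensus on the minus strand and TATAAA.
CXCL8, chr4:73740319-73740505, plus strand: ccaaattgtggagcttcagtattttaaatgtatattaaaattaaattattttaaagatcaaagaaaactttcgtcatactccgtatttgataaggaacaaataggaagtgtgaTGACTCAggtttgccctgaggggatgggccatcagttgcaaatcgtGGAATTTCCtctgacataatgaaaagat
CCL20, chr2:227813592-227813821, plus strand: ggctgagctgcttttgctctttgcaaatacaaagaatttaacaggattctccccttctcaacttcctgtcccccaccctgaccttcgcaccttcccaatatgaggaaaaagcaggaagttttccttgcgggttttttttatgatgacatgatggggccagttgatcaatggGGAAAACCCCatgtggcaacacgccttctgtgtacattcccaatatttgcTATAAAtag
The CXCL8 stretch ends before the first exon of GENCODE 29, and the CCL20 stretch lies outside its exons, upstream of the RefSeq start and inside an intron of a longer transcript. TGANTCA was found in 7.71% of all promoters, TATAAA in 11.5% and the NF-kB consensus in 11.3%. The consensus also overlapped GGAATTTCC in CXCL1, CXCL2, CXCL3, CXCL5 and CXCL6. GGAATTTCC was not in the CCL20 window, and TGANTCA was in that of CXCL8 alone among the 7. TATAAA was in both, at -29 from the RefSeq start in CCL20 and at -31 in CXCL8, past the end of its printed stretch.

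CXCL1, CXCL2 and CXCL3 are near copies of each other, which bears on how far their reads can be told apart. Their coding sequences are 321 bases each in GENCODE 29, with 93.5% of bases identical between CXCL1 and CXCL2, 90.7% between CXCL1 and CXCL3 and 94.4% between CXCL2 and CXCL3. A stretch of 90 coding bases from exon 2 (GRCh38) shows how few bases part them, with the 8 positions that differ between any of the 3 in capitals.
CXCL1: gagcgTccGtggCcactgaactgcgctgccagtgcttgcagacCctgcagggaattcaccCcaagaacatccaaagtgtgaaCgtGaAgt
CXCL2: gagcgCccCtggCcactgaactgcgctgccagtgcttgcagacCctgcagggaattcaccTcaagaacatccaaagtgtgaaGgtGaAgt
CXCL3: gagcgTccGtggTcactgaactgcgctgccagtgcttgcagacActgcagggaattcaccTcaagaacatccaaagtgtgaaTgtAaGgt
Of all stretches of 31 bases in their transcripts, 14.4% for CXCL1, 22.5% for CXCL2 and 9.54% for CXCL3 also occur in another gene, so part of their counts is uncertain, above all for CXCL1, which had few reads beside CXCL2. CXCL8 and CCL2 shared none, CCL20 1.57%, and CX3CL1, CXCL5, CXCL6 and CXCL16 between 4.99% and 6.74%. CXCL16 overlaps MED11 on the opposite strand over 3.04% of its exonic length, and CXCL6 overlaps PPBPP1 over 4.31%. The strand setting of the counting was not given in the sources used here.

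Total counts ran from 14057282 to 18177109 per sample, so that 3 reads, the limit below which a gene was treated as not detected, correspond to 0.165 to 0.213 CPM, the read count scaled to the depth of the sample. Values below are counts, or CPM scaled by TMM factors, and fold changes and adjusted p come from edgeR's quasi-likelihood test with Benjamini-Hochberg adjustment over all genes tested. A gene was called at an adjusted p below 0.05. Statements that the samples of groups overlap or not describe 3 samples against 3. The share of all genes without overlap is not given beside them. Of the proximal tubule markers, PAX8, KRT8, KRT18, GGT1 and CDH2 were present at over 100 CPM in control cells, while LRP2 had at most 3 reads in any sample and CUBN, SLC34A1 and AQP1 were below 1 CPM in control. The 12 leukocyte markers summed to 14.6 to 17.4 CPM in the control samples, to 9.42 to 14.2 and 9.27 to 9.75 CPM in those given iohexol and cisplatin, and to 15.1 to 20.02 CPM in the vancomycin samples, mostly CSF1R, with PTPRC at 5 reads or fewer and CD2 at 0. The 5 endothelial markers summed to at most 4.28 CPM in any sample. The 7 fibroblast markers summed to 115 to 129 CPM in the control samples, to 106 to 116 and 105 to 109 CPM in those given iohexol and cisplatin, and to 241 to 277 CPM in the vancomycin samples, chiefly LUM, COL1A1 and DCN, with PDGFRA and COL1A2 at 5 reads or fewer throughout. The part of these cells' genes in the chemokine results was not tested. In bulk RNA, fewer producing cells and less RNA per cell cannot be told apart.

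CXCL8 dominated the chemokine reads of HK-2 cells in every sample. It made up 78.4% to 80.2% of the reads of the 10 members in control. The cisplatin samples had the highest share (89.3% to 90.1%), above iohexol (80.5% to 85.6%) and vancomycin (79.0% to 81.7%). Among all genes it ranked 53 to 68 by count in the control samples and 17 to 20 in the cisplatin samples. The members together took 0.122% to 0.135% of all reads in control and 0.198% to 0.201% with cisplatin.

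Levels per exon length set the members in order. In control, CXCL8 stood at 455 ± 33.8 CPM per kb (SD, n = 3), followed by CXCL5 at 48.9 ± 3.86, CXCL2 at 37.3 ± 0.605 and CCL20 at 24.5 ± 1.12. CX3CL1 at 5.93 ± 0.539 and CXCL16 at 5.13 ± 0.652 CPM per kb overlapped, and below them came CXCL3 at 1.68 ± 0.185, CCL2 at 0.619 ± 0.313 and CXCL1 at 0.244 ± 0.0796. The control samples of all other neighbours in this order did not overlap, down to CXCL6 with no read.
The order changed with the drugs chiefly through CCL20. It was 4th in control and with vancomycin (15.4 ± 4.15 CPM per kb), 5th with iohexol (6.62 ± 0.426), behind CX3CL1, and 6th with cisplatin (2.96 ± 0.258), where it overlapped CXCL16 (3.04 ± 0.203). With iohexol CXCL2 (42.8 ± 0.919 CPM per kb) stood above CXCL5 (30.8 ± 2.25) with no overlap, the reverse of control, and with vancomycin both overlapped. CCL2 and CXCL1 overlapped under each drug.

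**Figure D1:**
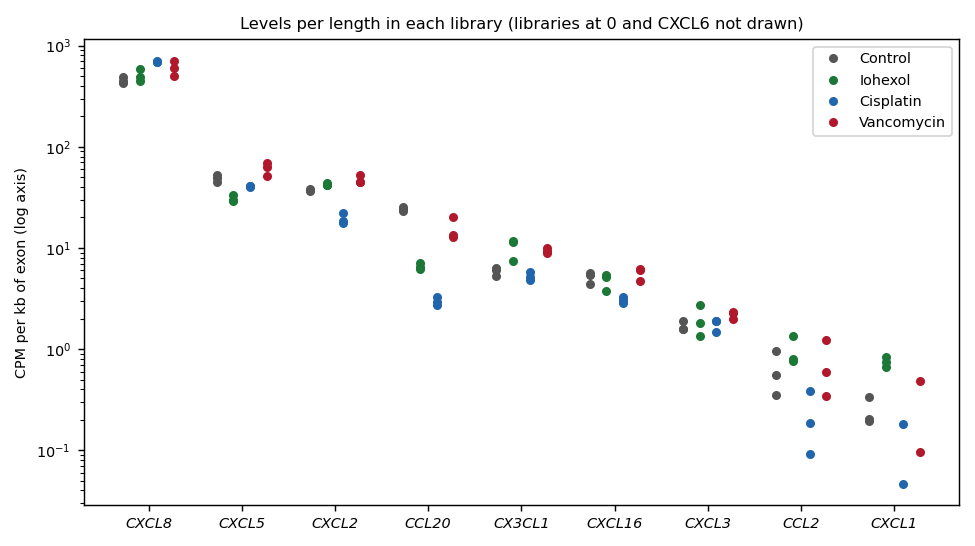
Level of 9 chemokines in CPM per kb of exon (log axis) in each of the 12 HK-2 samples, coloured by group; samples at 0 and CXCL6 are not drawn. CXCL8 lies above all others in every group, and CCL20 moves from 24.5 CPM per kb on average in control to 2.96 with cisplatin.

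Against control, the chemokines did not move as a block under any of the drugs. With iohexol, 9 members passed the filter on low counts, and CXCL1 and CX3CL1 rose while CXCL5 and CCL20 fell, where 11.2% of all 15657 genes tested were called higher and 9.77% lower. CXCL1 passed only through the iohexol samples and could only be called higher, and it is in this count and in the median below. With cisplatin, 8 passed, CXCL8 rose and CXCL2, CXCL5, CXCL16, CCL2 and CCL20 fell, where 29.2% of 15876 genes were called higher and 30.6% lower. With vancomycin, 8 passed, CXCL2, CXCL5, CXCL8 and CX3CL1 rose and CCL20 fell, where 29.0% of 15819 genes were called higher and 28.8% lower. The median log2 fold change of the members tested was 0.22, -0.51 and 0.29, beside 0.01, 0.01 and -0.01 over all genes. The 3 comparisons share the control samples. With library size in place of TMM as the scaling, which moves the median of all genes to 0.08, 0.23 and -0.08, the share of calls that were higher went from 53.4% to 67.5% in the iohexol comparison. It went from 48.9% to 68.1% in that of cisplatin, and in that of vancomycin from 50.2% to 43.6%.
CCL20 was called in the same direction under all 3 drugs, CXCL8 and CX3CL1 rose under a pair of them, CXCL5 moved both ways, and CXCL3 was called under none. Adding a fold limit (log2 fold change beyond 1 in size), which 4.02% of genes pass upward and 1.25% downward with iohexol, left CXCL1 up, the only way it could be called, and CCL20 down. With cisplatin, where the shares were 7.62% and 8.72%, it left CCL2 and CCL20, both down, and with vancomycin, at 10.8% and 7.65%, it left none of the members.

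**Figure D2:**
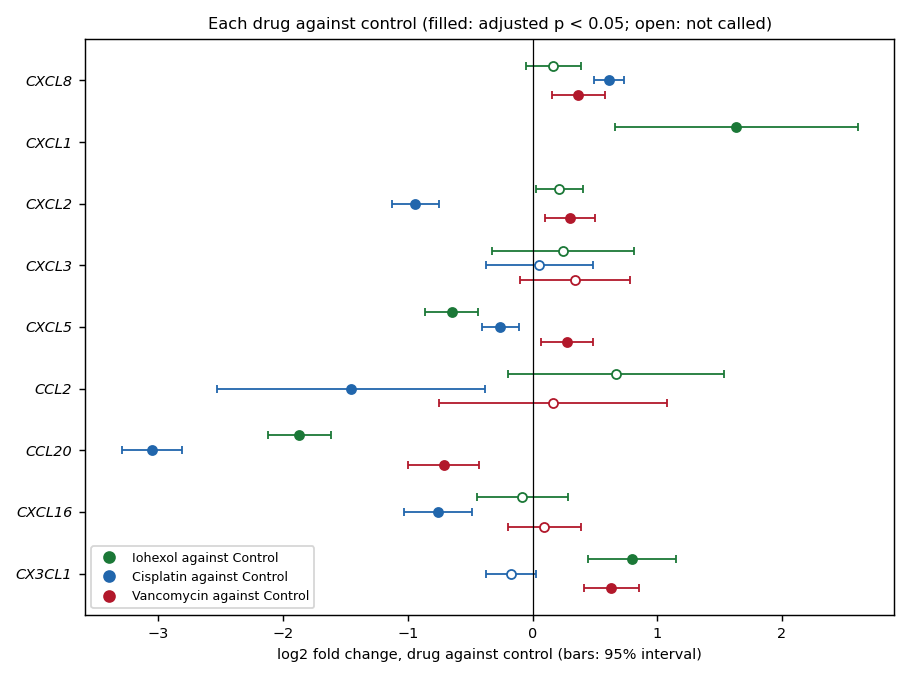
Log2 fold change of each chemokine against control for iohexol, cisplatin and vancomycin, with 95% intervals; filled points have an adjusted p below 0.05, and CXCL1 was tested for iohexol alone. CCL20 lies left of 0 for all 3 drugs, at -1.87, -3.05 and -0.71, while CXCL5 and CXCL2 lie on both sides.

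CCL20, the CCR6 ligand, had the largest log2 fold change of the members tested against control under each drug. Its counts were 536, 652 and 568 in control, 144, 163 and 169 with iohexol, 76, 84 and 74 with cisplatin, and 324, 477 and 346 with vancomycin. No drug-treated sample overlapped the control samples, and those of the 3 drugs did not overlap each other either. How common this was over all genes is not given. In CPM the means were 39.1 ± 1.78 in control, 10.6 ± 0.680 with iohexol, 4.71 ± 0.411 with cisplatin and 24.6 ± 6.61 with vancomycin (SD, n = 3). CCL20 fell by 1.87 on the log2 scale with iohexol (SE 0.12, adjusted p = 7.27e-07) and by 3.05 with cisplatin (SE 0.12, adjusted p = 5.35e-13), which leaves 0.274 and 0.121 of the control level. With vancomycin it fell by 0.71 (SE 0.14, adjusted p = 9.05e-05), to 0.61 of control. The iohexol value lay at the 0.185th, the cisplatin value at the 0.529th and the vancomycin value at the 14.4th percentile of all genes tested.

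The 5 neutrophil ligands that were tested took different courses. CXCL8 had 15466, 16060 and 14842 reads in control, 16079, 15785 and 19846 with iohexol, 26462, 25766 and 26632 with cisplatin and 21981, 23984 and 18442 with vancomycin. The cisplatin samples lay far above control and close together, the vancomycin samples above control with a wide spread, and the iohexol samples overlapped control. In CPM this was 1035 ± 76.9 in control, 1149 ± 162 with iohexol, 1587 ± 15.004 with cisplatin and 1377 ± 242 with vancomycin (SD, n = 3). CXCL8 rose by a log2 fold change of 0.61 with cisplatin (SE 0.06, adjusted p = 5.73e-08) and 0.37 with vancomycin (SE 0.10, adjusted p = 0.00348), and its value with iohexol was 0.17 (95% interval -0.06 to 0.39, adjusted p = 0.279).

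CXCL2, a CXCR2 ligand, was the steadiest member in control, with 759, 893 and 865 reads or 56.0 ± 0.907 CPM. Its counts were 916, 994 and 985 with iohexol, 437, 452 and 562 with cisplatin and 1075, 1169 and 1082 with vancomycin. In CPM all iohexol and vancomycin samples lay above control and all cisplatin samples below. CXCL2 fell by 0.94 on the log2 scale with cisplatin (SE 0.09, adjusted p = 8.04e-08) and rose by 0.30 with vancomycin (SE 0.10, adjusted p = 0.0112). The value with iohexol was 0.22 (95% interval 0.02 to 0.41, adjusted p = 0.104), which was called only with library size as the scaling (0.29, adjusted p = 0.0362). The vancomycin call was lost with library size (adjusted p = 0.0541) and without Control replicate 2 (0.0511) or Vancomycin replicate 2 (0.0624).

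CXCL5 had 1845, 1981 and 1738 reads in control, 1066, 1193 and 1266 with iohexol, 1716, 1707 and 1739 with cisplatin and 2535, 2576 and 2136 with vancomycin. After scaling, the iohexol and the cisplatin samples lay below control, while 1 vancomycin sample (132 CPM) lay inside the control range of 114 to 134 CPM. CXCL5 fell by 0.65 with iohexol (SE 0.10, adjusted p = 0.000605) and by 0.26 with cisplatin (SE 0.07, adjusted p = 0.00387), and rose by 0.27 with vancomycin (SE 0.10, adjusted p = 0.0223). With library size as the scaling, the cisplatin value was -0.04 (adjusted p = 0.627) and the vancomycin value 0.20 (0.0904). The vancomycin call was also lost without Control replicate 2 (0.0633) or 3 (0.127) and without Vancomycin replicate 1 (0.0585) or 2 (0.124).

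CXCL3 had 45 to 95 reads in every sample and was not called under any drug, although its vancomycin samples all lay above control in CPM. Its log2 fold change was 0.25 for iohexol (95% interval -0.32 to 0.82, adjusted p = 0.553), 0.05 for cisplatin (-0.37 to 0.48, 0.831) and 0.34 for vancomycin (-0.10 to 0.78, 0.179). The iohexol counts of 58, 95 and 45 spread more widely than those of the other groups, and the intervals for iohexol and vancomycin still hold a rise as large as that of CXCL8 with cisplatin (0.61).

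CXCL1 was close to the detection limit. It had 6, 4 and 4 reads in control, 14, 17 and 13 with iohexol, 1, 0 and 4 with cisplatin and 10, 0 and 2 with vancomycin. The iohexol samples lay above control, at 0.974 ± 0.109 CPM beside 0.317 ± 0.103 (SD, n = 3), and the rise was called at a log2 fold change of 1.63 (SE 0.45, adjusted p = 0.0223). CXCL1 passed the filter on low counts only through the iohexol samples, so that a rise was the only call it could give. The call did not hold with DESeq2 (0.0623), with all 4 groups in 1 fit (0.0859), or without Control replicate 2 (0.114) or 3 (0.0896) or Iohexol replicate 1 (0.0649) or 2 (0.0906). CXCL1 missed the filter for cisplatin and vancomycin, and with all genes of at least 1 count its values there were -1.60 (adjusted p = 0.271) and -0.36 (0.793). CXCL6 had 1 read in all 12 samples, in Iohexol replicate 3. It was therefore not detectable at this depth, where a count of 0 allows up to 0.165 to 0.213 CPM.

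**Figure D3:**
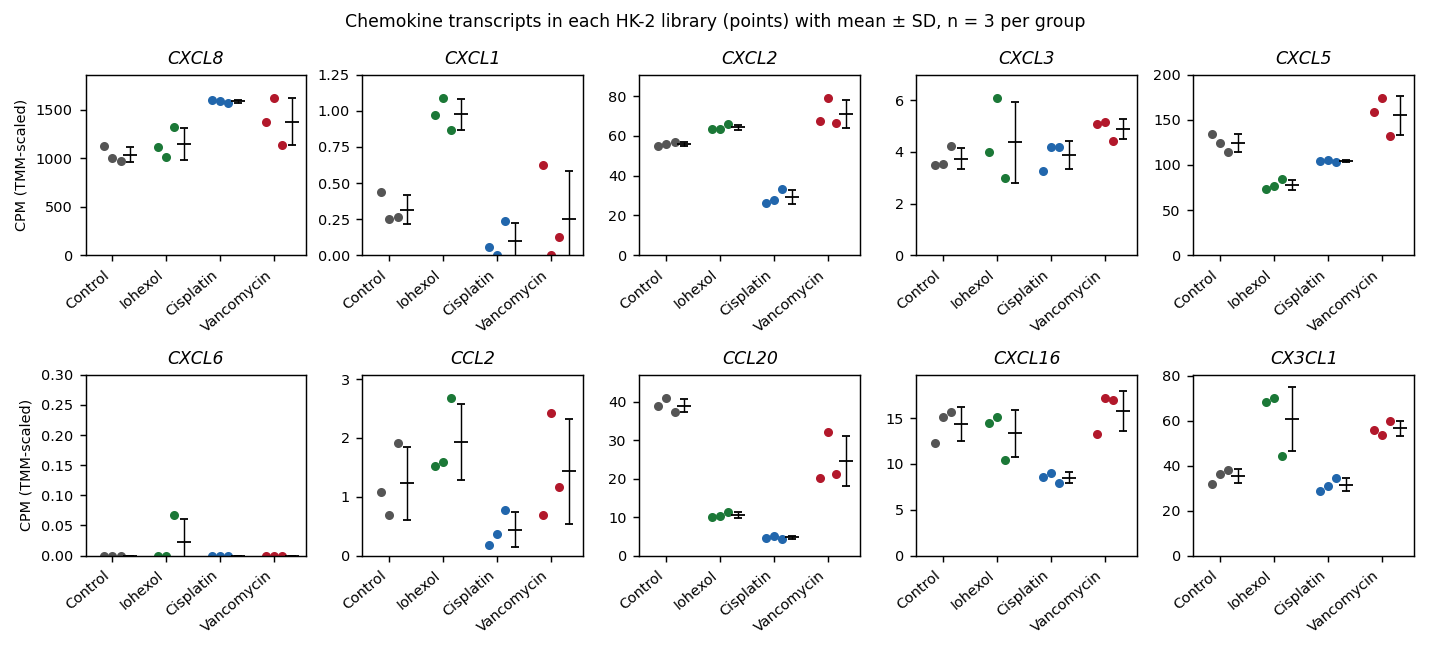
TMM-scaled CPM of each of the 10 chemokines in each sample (points; linear axes from 0, one scale per gene), with the mean and SD of the 3 samples of a group beside them; SD bars that would pass below 0 are cut at the axis. CCL20 falls from 39.1 CPM in control to 4.71 with cisplatin, CXCL8 stands at 1587 CPM with cisplatin against 1035 in control, and CXCL6 is at or near 0 throughout.

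CCL2, the monocyte attractant, was low in these cells. It had 15, 11 and 29 reads in control, 22, 25 and 40 with iohexol, 3, 6 and 13 with cisplatin and 11, 36 and 19 with vancomycin. Only the cisplatin samples were mostly below the others, and their highest (0.768 CPM) lay above the lowest control sample (0.690 CPM). CCL2 fell by 1.46 on the log2 scale with cisplatin (SE 0.51, adjusted p = 0.0203). That value was -0.997 without Control replicate 3 (adjusted p = 0.15), -1.09 without Cisplatin replicate 1 (0.1), -1.35 without Cisplatin replicate 2 (0.0633) and -2.12 without Cisplatin replicate 3 (0.00886). With iohexol it was 0.67 (95% interval -0.20 to 1.53, adjusted p = 0.265) and with vancomycin 0.16 (-0.75 to 1.08, 0.774).

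The membrane-bound chemokines differed from each other. CX3CL1 had 440, 579 and 581 reads in control, 987, 1094 and 665 with iohexol, 476, 505 and 584 with cisplatin and 895, 795 and 976 with vancomycin. All iohexol and vancomycin samples were above control, with Iohexol replicate 3 (44.4 CPM) well below the other two of its group (68.2 and 70.0 CPM), and the cisplatin samples overlapped control. CX3CL1 rose by 0.80 on the log2 scale with iohexol (SE 0.16, adjusted p = 0.00437) and by 0.63 with vancomycin (SE 0.11, adjusted p = 1.85e-05). With cisplatin the value was -0.18 (95% interval -0.38 to 0.03, adjusted p = 0.124), called at -0.25 without Control replicate 1 (0.0138) and turned to 0.04 (0.717) with library size as the scaling.
CXCL16, whose receptor CXCR6 is found on T cells, had 169, 241 and 238 reads in control, 210, 237 and 156 with iohexol, 141, 147 and 134 with cisplatin and 212, 254 and 276 with vancomycin. The cisplatin samples lay below control and the others overlapped it. CXCL16 fell by 0.76 on the log2 scale with cisplatin (SE 0.13, adjusted p = 8.29e-05), to 0.591 of control. The values with iohexol and vancomycin were -0.08 (95% interval -0.45 to 0.28, adjusted p = 0.763) and 0.09 (-0.20 to 0.39, 0.589).

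The drugs were also compared with each other, in a fit of all 12 samples over 17073 genes, at the 1 dose and time each was given. Of the 9 members tested, cisplatin stood higher than iohexol for CXCL5 and CXCL8 and lower for CXCL1, CXCL2, CXCL16, CCL2, CCL20 and CX3CL1, where 26.0% of genes were called higher and 27.9% lower. Vancomycin stood higher than iohexol for CXCL5, CXCL8 and CCL20 and lower for CXCL1, where the shares were 29.0% and 27.6%. Vancomycin stood higher than cisplatin for CXCL2, CXCL5, CXCL16, CCL2, CCL20 and CX3CL1 and lower for none, where the shares were 34.7% and 30.0%. The members' median log2 differences were -0.95, 0.16 and 0.89, beside 0.00, -0.02 and 0.03 over all genes, and each pair of these comparisons shares a drug. CXCL1 is in these counts and medians, though it passed the filter only through the iohexol samples. Lower was thus the only call it could give against iohexol. With library size as the scaling, which moves the medians of all genes to 0.13, -0.22 and -0.30, the share of calls that were higher went from 48.3% to 58.8%, from 51.3% to 34.4% and from 53.7% to 33.6%.

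From highest to lowest, CCL20 was ordered control, vancomycin, iohexol, cisplatin, and each step between drugs was called. Cisplatin was below iohexol by a log2 difference of -1.16 (SE 0.17, adjusted p = 1.1e-05), and vancomycin was above iohexol by 1.22 (SE 0.15, adjusted p = 9.41e-07) and above cisplatin by 2.38 (SE 0.16, adjusted p = 1.27e-10). From lowest to highest, CXCL5 was ordered iohexol, cisplatin, control, vancomycin. Its differences were 0.41 (SE 0.10, adjusted p = 0.00127) for cisplatin against iohexol, 0.57 (SE 0.10, adjusted p = 2.67e-05) for vancomycin against cisplatin and 0.98 (SE 0.10, adjusted p = 3.85e-08) for vancomycin against iohexol. CXCL2 was lower with cisplatin than with either other drug, by -1.14 against iohexol (SE 0.10, adjusted p = 6.49e-09) and 1.28 for vancomycin against cisplatin (SE 0.10, adjusted p = 5.97e-10). Iohexol and vancomycin were not told apart for CXCL2 (0.14, 95% interval -0.05 to 0.34, adjusted p = 0.205).

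CX3CL1 also differed between cisplatin and the other drugs, but not in the same way against control. There CXCL2 fell with cisplatin (-0.94). CX3CL1 was not called with cisplatin (-0.18) and rose with iohexol (0.80) and vancomycin (0.63). Between drugs, CX3CL1 was lower with cisplatin than with iohexol by -0.95 (SE 0.13, adjusted p = 6.09e-06), and vancomycin was above cisplatin by 0.85 (SE 0.13, adjusted p = 1.62e-05). Vancomycin against iohexol gave -0.10 (95% interval -0.38 to 0.17, adjusted p = 0.515), and -0.29 with a call (0.0140) without Iohexol replicate 3. CXCL16 was lower with cisplatin than with iohexol by -0.65 (SE 0.16, adjusted p = 0.00162) and higher with vancomycin than with cisplatin by 0.89 (SE 0.16, adjusted p = 4.68e-05), while vancomycin against iohexol gave 0.24 (95% interval -0.07 to 0.56, adjusted p = 0.183).

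CXCL8 was higher with cisplatin than with iohexol by 0.47 (SE 0.11, adjusted p = 0.00106). Vancomycin was above iohexol by 0.26 (SE 0.11, adjusted p = 0.0445), a call lost in 14 of 20 other settings, including the removal of Control replicate 2 (0.0515), Iohexol replicate 1 (0.103) or 2 (0.203), any Cisplatin replicate (0.0550 to 0.0561), or Vancomycin replicate 1 (0.0863) or 2 (0.318). Vancomycin against cisplatin gave -0.21 (95% interval -0.43 to 0.02, adjusted p = 0.0991), and CXCL8 was called lower with vancomycin without Iohexol replicate 3 (0.0434) or Vancomycin replicate 2 (0.0115), with only both drugs in the fit (-0.26, 0.00959), with all genes of at least 1 count (0.0319) and with library size as the scaling (-0.54, 0.000138).

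The low chemokines gave large but imprecise differences, and CXCL1 passed the filter here only through the iohexol samples, so a lower level against iohexol was the only call it could give there. CCL2 was lower with cisplatin than with iohexol by -2.11 (SE 0.54, adjusted p = 0.00244), or -2.77 without Cisplatin replicate 3, and vancomycin was above cisplatin by 1.66 (SE 0.55, adjusted p = 0.0124). The vancomycin value was 1.30 without Cisplatin replicate 1 (0.0638), 1.07 without Vancomycin replicate 2 (0.126) and 2.33 without Cisplatin replicate 3 (0.00531). CXCL1 was lower with cisplatin than with iohexol by -3.18 (SE 0.80, adjusted p = 0.00231), or -4.67 without Cisplatin replicate 3, and lower with vancomycin than with iohexol by -1.91 (SE 0.69, adjusted p = 0.0240). That last value was -2.70 with limma-voom (adjusted p = 0.00444), -3.77 without Vancomycin replicate 1 (0.00187), -1.82 without Iohexol replicate 2 (0.0657), -1.37 without Vancomycin replicate 2 (0.101) and -1.58 without Vancomycin replicate 3 (0.103). CXCL3 was called in none of the 3 drug pairs, with log2 differences of -0.17, 0.16 and 0.33.

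**Figure D4:**
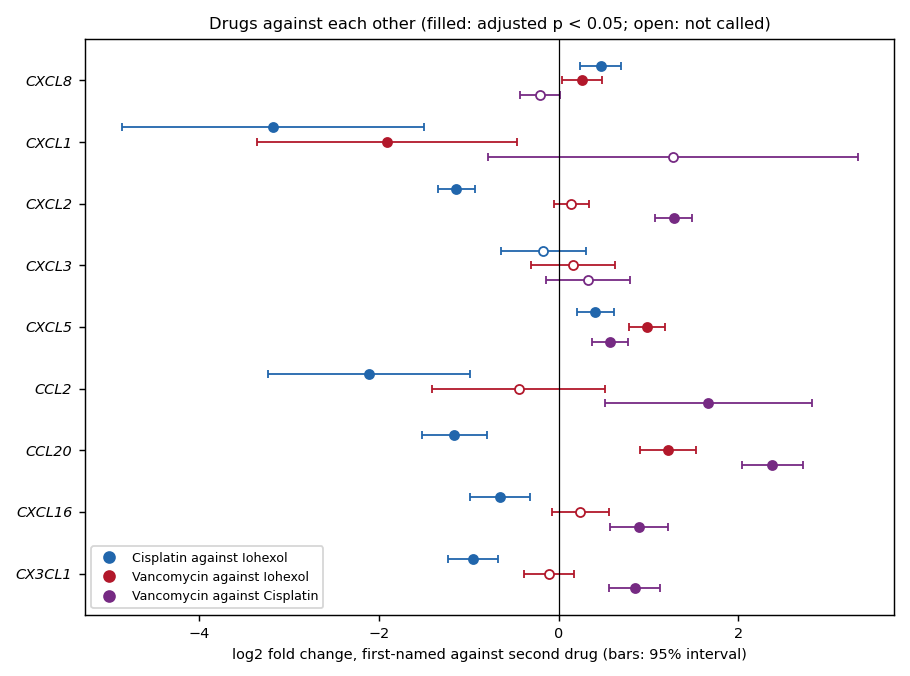
Log2 difference of each chemokine between drugs (first-named against second), with 95% intervals from the fit of all 12 samples; filled points have an adjusted p below 0.05. CCL20 differs in all 3 pairs (-1.16, 1.22 and 2.38), CXCL2, CXCL16, CCL2 and CX3CL1 are lower with cisplatin than with either other drug, and the intervals of CXCL1 and CCL2 are the widest.

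Few other chemokines were expressed in HK-2 cells. Of a list of 38 others, 36 were in the table, 14 had no read in any sample, and 3 passed the filter over all 12 samples. CCL28, a mucosal epithelial chemokine, had 202 to 330 reads and was not called under any drug. CCL5, which draws T cells and monocytes, had 0, 2 and 0 reads in control, 2, 2 and 0 with iohexol, 0, 0 and 1 with cisplatin and 41, 55 and 50 with vancomycin, so only the vancomycin samples stood clear of 0. The ratio to control by summed reads was 69.7, with a counting interval of 19.0 to 581 (exact Clopper-Pearson, counting error only), and edgeR gave an adjusted p of 1.58e-08. CCL26, an eosinophil attractant, had 1, 4 and 3 reads in control, 57, 48 and 27 with cisplatin, and 9 or fewer in every other sample. Its log2 fold change with cisplatin was 3.85 (SE 0.48, adjusted p = 2.53e-06). CCL5 and CCL26 passed the filter only through the group in which they were high, so their calls could have only this direction.

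RNA of chemokine receptors was scarce. Of 23 receptor genes, 6 had no read in any sample and 4 passed the filter over all samples (CXCR4, CXCR6, CCR10 and ACKR4). CXCR6, the receptor of CXCL16, had 3, 6 and 5 reads in control, 2, 20 and 11 with iohexol and 19, 13 and 19 with cisplatin. Its log2 fold change with cisplatin was 1.70 (SE 0.45, edgeR adjusted p = 0.0038). Of the 3 comparisons with control it was tested in that one alone, since it passed the filter only through the cisplatin samples. A rise was thus the only call it could give. CCR10, tested in all 3 comparisons with control, was not called. The ligand CXCL16 fell with cisplatin, and a link with CXCR6 was not tested.

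Genes of the NF-kB system, the pathway whose sequence the cluster's promoters share, were then listed, and all 15 were tested. With iohexol 2 rose and 4 fell (median log2 fold change -0.04), where 11.2% of all genes were called higher and 9.77% lower. With cisplatin 9 rose and 4 fell (0.33), beside 29.2% and 30.6% of all genes, and with vancomycin 9 rose and 2 fell (0.35), beside 29.0% and 28.8%. Beyond a log2 fold change of 1 were the inhibitors NFKBIE (1.73, adjusted p = 8.74e-12) and NFKBIB (1.06, 8.35e-08) and the A20 partner TNIP1 (1.17, 1.16e-10), all with vancomycin. NFKBIA, the inhibitor that is itself an NF-kB target, rose with iohexol (0.34, adjusted p = 0.0314) and vancomycin (0.44, 0.000153) and fell by 0.85 with cisplatin (5.23e-09).

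Among 15 cytokines and receptors that induce chemokines, 11 were tested for iohexol and 12 for each of the other drugs. With iohexol 1 rose (IL6, 0.89, adjusted p = 0.000117) and 2 fell, with cisplatin 2 rose and 4 fell, and with vancomycin 9 rose and 2 fell, against the same shares of all genes (11.2% higher and 9.77% lower, 29.2% and 30.6%, and 29.0% and 28.8%). TNF and LTB, both activators of NF-kB, fell by 1.22 (adjusted p = 0.000105) and 3.26 (2.06e-09) with cisplatin and by 2.02 (5.93e-07) and 2.55 (3.53e-10) with vancomycin. The receptors TNFRSF1B (4.06, adjusted p = 7.44e-13) and IL1R1 (2.04, 3.41e-13) and the ligand IL1A (1.67, 0.00131) rose with vancomycin. IL1A had 9, 15 and 6 reads in control and 21, 45 and 37 with vancomycin. It passed the filter there only through the vancomycin samples, which favoured a rise. TNFRSF1B had 9 to 22 reads in the samples of the other groups and 171, 219 and 246 with vancomycin.

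The proteases that cut CX3CL1 and CXCL16 off the membrane were both tested. ADAM10 fell by 1.202 with cisplatin (adjusted p = 1.6e-10) and by 0.93 with vancomycin (1.13e-08). ADAM17 fell by 0.86 with cisplatin (2.83e-08) and rose by 0.50 with vancomycin (3.97e-05), and neither was called with iohexol. RNA counts do not measure the shed protein.
Of 6 proteins that bind AU-rich chemokine mRNAs, 1 fell with iohexol, 3 rose and 3 fell with cisplatin, and 2 rose and 2 fell with vancomycin, where 9.77% of all genes were called lower with iohexol, 29.2% higher and 30.6% lower with cisplatin, and 29.0% higher and 28.8% lower with vancomycin. ZFP36, which destabilises such mRNAs, rose by 1.94 with vancomycin (adjusted p = 1.89e-11), and its relative ZFP36L1 fell by 1.23 with cisplatin (8.76e-12). Of the adhesion partners of leukocytes, VCAM1 fell by 2.10 with iohexol (adjusted p = 2.38e-06) and 2.05 with cisplatin (2.76e-10), in the 2 comparisons where CCL20 fell most, and rose by 0.73 with vancomycin (5.38e-06), while ICAM1 rose by 1.30 with vancomycin (8.38e-11).

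**Figure D5:**
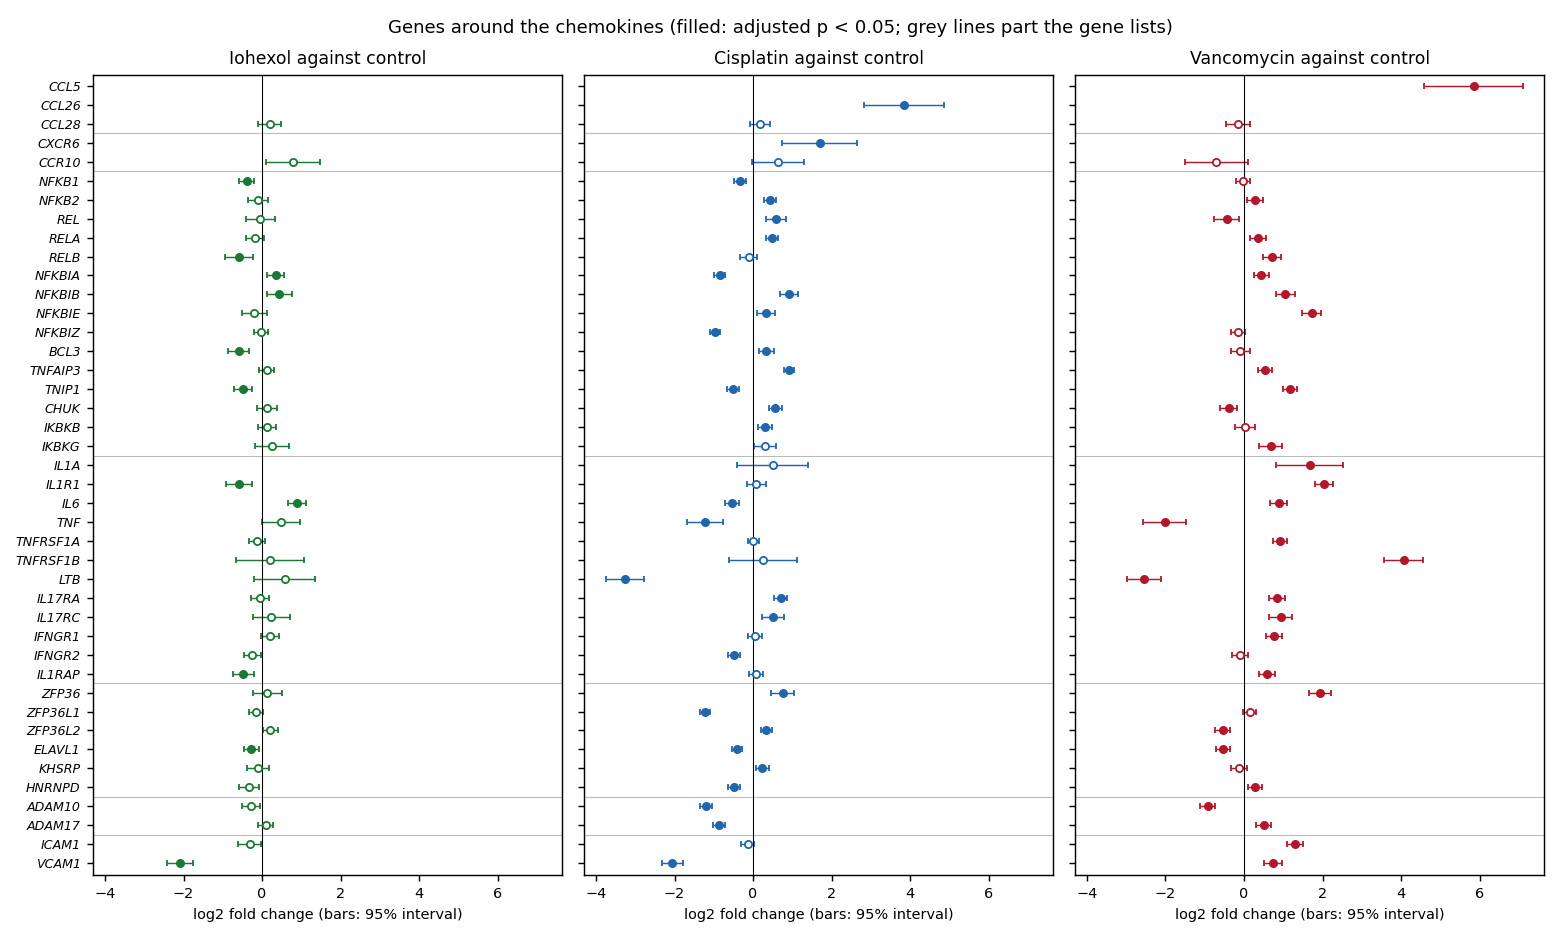
Log2 fold change against control, with 95% intervals, of the tested genes of 7 lists (other chemokines, receptors, NF-kB genes, inducing cytokines, AU-rich mRNA binders, sheddases, adhesion partners, from top to bottom and parted by grey lines); filled points have an adjusted p below 0.05. CCL5 at 5.85 and TNFRSF1B at 4.06 stand out with vancomycin, CCL26 at 3.85 and LTB at -3.26 with cisplatin, and VCAM1 at -2.10 with iohexol.

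The genes around the chemokines are given as counts of calls, to be read against the shares of all genes called higher and lower, 11.2% and 9.77% with iohexol, 29.2% and 30.6% with cisplatin and 29.0% and 28.8% with vancomycin. Within 1 Mb of the chromosome 4 cluster lie 15 other protein-coding genes. Tested were 7 of them with iohexol, 8 with cisplatin and 9 with vancomycin. Of those tested, 0 rose and 2 fell with iohexol, 3 rose and 3 fell with cisplatin, and 1 rose and 4 fell with vancomycin. AREG and EREG, ligands of the EGF receptor, fell by 1.13 (adjusted p = 4.36e-06) and 0.93 (0.000237) with iohexol and by 1.68 (2.81e-13) and 1.16 (1.65e-10) with vancomycin, where CXCL2 rose. With cisplatin EREG fell by 0.89 (3.55e-09) and AREG was not called (0.07, 0.333). Their neighbour BTC rose with vancomycin (1.11, adjusted p = 0.000112) and AFP with cisplatin (1.49, 0.000757). AFP was not tested with iohexol and passed the filter with cisplatin only through the cisplatin samples, which favoured a rise. Within 1 Mb of CCL20, 1, 3 and 2 of 5 tested genes fell with iohexol, cisplatin and vancomycin and none rose, with AGFG1 among them each time (-0.37, -0.46 and -0.57) and RHBDD1 at -1.39 with cisplatin (adjusted p = 1.95e-08).
Around CX3CL1, 3 of 37 tested genes rose and 8 fell with iohexol, 12 of 37 rose and 15 fell with cisplatin, and 8 of 38 rose and 14 fell with vancomycin. Of the 8 that fell with iohexol, 6 were metallothionein genes (MT1E, MT1F, MT1G, MT1M, MT1X and MT2A), whose proteins bind zinc and copper. Their log2 fold changes ran from -4.37 (MT1G, adjusted p = 2.07e-07) to -2.01 (MT1M, 8.89e-05). MT1A, also tested with iohexol, was not called (-0.21, adjusted p = 0.678). With cisplatin MT2A (-1.72, adjusted p = 2.65e-12), MT1F (-0.89), MT1E (-0.73) and MT1X (-0.61) also fell, while MT1G and MT1M were not called. With vancomycin the same 6 fell, from -1.82 for MT1G (9.91e-09) and -1.65 for MT1E (1.45e-12) to -0.59 for MT1M (0.00276). Beyond a log2 fold change of 1 with cisplatin were also ADGRG1 (-1.60), MMP15 (-1.62), CNGB1 (1.92) and ARL2BP (1.09), and with vancomycin ADGRG3 (1.95), ARL2BP (2.33), CETP (1.81) and NLRC5 (1.34). CETP, at 0.279 CPM in control, passed the filter there only through the vancomycin samples, which favoured a rise. Around CXCL16, 5 of 39 rose and 5 fell with iohexol, 13 of 40 rose and 10 fell with cisplatin, and 4 of 39 rose and 18 fell with vancomycin. Of these, SMTNL2 rose with iohexol (2.55, adjusted p = 2.16e-07) and fell with cisplatin (-2.43, 5.54e-08), and SPNS2, a sphingosine-1-phosphate transporter, fell with cisplatin (-1.86, 3.52e-11) and vancomycin (-2.09, 7.77e-14). The others beyond a log2 fold change of 1 were SPNS3, ENO3 and NLRP1 with iohexol, CAMKK1, C17orf107, GP1BA and INCA1 with cisplatin, and SPAG7 and SPNS3 with vancomycin. Around CCL2, none of 7 was called with iohexol, 1 of 6 rose with cisplatin, and 2 rose and 1 fell of 6 with vancomycin, SLFN5 (1.10, adjusted p = 4.16e-09) being the 1 beyond a log2 fold change of 1.

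Across the 12 samples, which share 4 groups, the log2 CPM values of the members ran together for some pairs and apart for others. Pearson's r was 0.84 for CXCL2 with CXCL16, 0.82 for CXCL2 with CCL2, 0.78 for CXCL16 with CCL20 and 0.75 for CXCL2 with CX3CL1. CXCL8 had a negative r with CXCL16 (-0.63), CCL20 (-0.57), CXCL1 (-0.57) and CXCL2 (-0.50). Between CXCL2 and CXCL3, with 94.4% identical coding sequence and the same 9 bases at nearly the same place, r was 0.34. These values describe the differences between the groups and are given with no p.
By the same measure over the 12 samples, the genes most like CCL20 were MTHFD1L (0.98), CDH6 (0.98) and ALDH18A1 (0.98). Those most like CXCL8 were HDAC9 (0.97), EIF5 (0.96) and AK3 (0.96), and those most like CXCL5 were CNBP (0.98), RPL7 (0.98) and CYP1B1 (0.97). CXCL2 was followed most closely by SUMF1, KIAA1211 and EFCAB6 (each 0.99), CX3CL1 by DHCR7 (0.98), LSS (0.97) and PIP5K1C (0.96), and CXCL16 by BRF1 (0.97), P3H4 (0.97) and CTBP1 (0.97). For the low members the best values were less high, 0.96 for CXCL1 with RAB11FIP1P1, 0.95 for CCL2 with SLC22A23 and 0.88 for CXCL3 with LYRM9. The members were left out of this search, so none could be listed as most like another.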

How the data were processed

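The deposited table holds raw read counts per gene for the 12 samples, and the authors made it from poly(A) libraries (NEBNext Ultra). Per the submitters' processing notes, the tools were CASAVA 1.8, fastp, HISAT2 2.0.5, featureCounts 1.5.0-p3 and DESeq2 1.20.0. The genome build and strand setting were not given in the sources used here. All 58735 gene identifiers are in GENCODE 29 and 58690 have the same position there, so positions are GRCh38. Groups followed the sample titles. The members and the gene lists were chosen with earlier results of these data known.

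Counts were analysed in R 4.3.3 with edgeR 4.0.16: filterByExpr (minimum count 10, minimum total 15), TMM scaling and quasi-likelihood tests over all genes, each drug with control in a fit of 6 samples and drug pairs in a fit of 12. SE is the fold change divided by the root of F, and 95% intervals use the test's t distribution. CPM divides counts by total times TMM factor, and correlations use log2 CPM with a prior count of 2. Replicates differed by more than sampling noise (chi-square per degree of freedom 2.29 to 16.4 over 12 pairs). The procedure was tested on simulated data. All 10 members were named, with the genes of the lists and the protein-coding neighbours within 1 Mb that were called beyond a log2 fold change of 1 against control. CCL28, NFKBIA, IL6, ADAM17 and AGFG1 were named after their values were seen. For each member the 3 genes of highest correlation outside the 10 members were taken, and 1 is given for CXCL1, CXCL3 and CCL2. Alternatives were other scalings (RLE, library size), filters, DESeq2 1.42.0, limma-voom (limma 3.58.1), other sample sets, a replicate block and leaving out each sample.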

Additional observations from a re-analysis of the deposited data

How the results depend on the processing

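The count of chemokines that rose with iohexol was 1 in place of 2 with at least 10 counts in every sample, DESeq2, all 4 groups in 1 fit and the replicate block, and 1 to 2 when samples were left out in turn. For vancomycin against control it was 2 in place of 4 with library size, and 2 to 4 with samples left out. For vancomycin against cisplatin the count lower was 1 in place of 0 (CXCL8) with library size, all genes of at least 1 count and only both drugs in the fit, and 0 to 1 with samples left out. For vancomycin against iohexol it was 0 in place of 1 with at least 10 counts in every sample, which leaves CXCL1 untested, and 0 to 2 with samples left out. The other 8 counts stayed within 1.5 times. Beyond those constructions the cause was not tested.

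With library size, the sign turned for CX3CL1 with cisplatin (0.0426), for CXCL2 (-0.0652) and CXCL3 (-0.0532) in vancomycin against iohexol and for CXCL3 in vancomycin against cisplatin (-0.0077). None of these had been called. With samples left out, the sign also turned for uncalled values only: CXCL3 with iohexol (-0.0834 to 0.46) and cisplatin (-0.0019 to 0.16), CXCL16 with iohexol (-0.20 to 0.0684) and vancomycin (-0.0052 to 0.21), CCL2 with vancomycin (-0.43 to 0.63), CXCL3 in cisplatin against iohexol (-0.38 to 0.15) and vancomycin against iohexol (-0.0555 to 0.48), CX3CL1 in vancomycin against iohexol (-0.29 to 0.0083) and CXCL1 in vancomycin against cisplatin (-0.58 to 2.76). CCL20 kept its direction and call in all 6 comparisons under every alternative run.

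Deviations of same-numbered samples from their group means had correlations of -0.18 to 0.10. These gave no clear sign of pairing by replicate number, but 3 samples per group cannot exclude it. The replicate block gave CXCL1 with iohexol 1.64 (adjusted p = 0.0569) and CXCL8 in vancomycin against iohexol 0.26 (0.0691), and took the genes called with iohexol from 3283 to 2096. It took those called with cisplatin from 9500 to 9769 and those with vancomycin from 9158 to 9679. In the iohexol comparison, leaving out Control replicate 2 or Iohexol replicate 2 gave 1849 and 2111 genes called. Leaving out Iohexol replicate 3 raised the number to 4544. The block changed no other chemokine's call. Depth limits CXCL1, CXCL6 and CCL2, which had at most 17, 1 and 40 reads.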
